A study of Mus musculus with 3 samples.

Results

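The genes described here carry fatty acids into mitochondria, oxidise them there, bind or activate them in the cytosol, or coat and break down lipid droplets. They are 37 genes chosen by symbol, of 24063 genes in the count table of the blastocyst libraries, and all 37 were found. The choice was made with the near absence of Cpt1c from NOD already known, so that the Cpt1c difference is given as a description.

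RNA-Seq was done on mouse blastocysts of 2 inbred strains, with 1 library of C57BL/6 (B6), which develops no autoimmune disease, and 2 libraries of NOD, which is prone to autoimmune diabetes. The embryos of both strains were untreated, carried no stated transgene or deletion, and their age is not given in the labels. The labels describe whole blastocysts put into the SMART-Seq V4 reaction without RNA isolation, whereas the text of the paper describes inner cell masses freed by immunosurgery and, in its methods, stored singly. The labels give no number of embryos for a library. Fewer cells of a type and less RNA per cell cannot be told apart in such libraries.

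Beta-oxidation shortens a fatty acid by a pair of carbons in each round. A long-chain fatty acid is first activated to an acyl-CoA by an acyl-CoA synthetase, handed to carnitine by a CPT1 enzyme on the outer mitochondrial membrane, carried through the inner membrane by the carnitine/acylcarnitine translocase and returned to CoA by CPT2. Each round then runs through a dehydrogenase, a hydratase, a second dehydrogenase and a thiolase, and the electrons reach the respiratory chain through ETF and ETF dehydrogenase. Lipid droplets store the same fatty acids as triglyceride under a coat of perilipins. In preimplantation mouse embryos, oxidation of fatty acids is known to support development to the blastocyst.

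The upstream windows of 5 genes are shown because the genes behind them are paralogs or neighbours whose counts moved apart between the strains. Each is the 250 bases before the start of the gene in RefSeq on GRCm38.p6, the assembly that mm10 is made from, read 5′ to 3′ on the strand of the gene. Capitals mark matches, on either strand, to 3 of the motifs searched: the nuclear receptor half-site AGGTCA, the GC box GGGCGG and the CCAAT box, whose name is its letters. Cpt1a lies at chr19:3323051-3323300 on the plus strand, Cpt1c at chr7:44974852-44975101 on the minus strand, Hadhb at chr5:30155003-30155252, Acot1 at chr12:84009252-84009501 and Acot2 at chr12:83987611-83987860, the last 3 on the plus strand.
Cpt1a: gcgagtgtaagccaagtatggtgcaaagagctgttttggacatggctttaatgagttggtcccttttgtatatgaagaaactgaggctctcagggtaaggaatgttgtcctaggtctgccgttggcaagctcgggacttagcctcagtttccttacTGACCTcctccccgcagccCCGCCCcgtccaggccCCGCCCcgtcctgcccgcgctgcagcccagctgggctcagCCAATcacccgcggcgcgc
Cpt1c: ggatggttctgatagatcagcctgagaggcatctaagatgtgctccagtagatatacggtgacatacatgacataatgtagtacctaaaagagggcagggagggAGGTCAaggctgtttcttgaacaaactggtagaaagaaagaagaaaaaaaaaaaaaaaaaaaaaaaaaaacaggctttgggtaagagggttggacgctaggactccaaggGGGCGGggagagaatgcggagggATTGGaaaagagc
Hadhb: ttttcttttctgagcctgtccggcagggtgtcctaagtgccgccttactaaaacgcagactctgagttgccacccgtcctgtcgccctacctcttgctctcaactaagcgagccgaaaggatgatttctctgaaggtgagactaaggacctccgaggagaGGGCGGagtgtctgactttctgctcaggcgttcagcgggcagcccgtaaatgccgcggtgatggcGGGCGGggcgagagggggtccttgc
Acot1: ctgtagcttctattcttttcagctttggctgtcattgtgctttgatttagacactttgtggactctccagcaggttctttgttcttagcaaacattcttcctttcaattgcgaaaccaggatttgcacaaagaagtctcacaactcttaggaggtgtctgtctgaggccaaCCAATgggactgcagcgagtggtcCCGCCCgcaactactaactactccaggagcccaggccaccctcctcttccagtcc
Acot2: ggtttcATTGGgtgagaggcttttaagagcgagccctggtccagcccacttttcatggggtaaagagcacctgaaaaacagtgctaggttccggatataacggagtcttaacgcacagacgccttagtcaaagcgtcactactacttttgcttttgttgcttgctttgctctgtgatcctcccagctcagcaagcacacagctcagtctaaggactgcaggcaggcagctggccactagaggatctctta

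Cpt1a and Cpt1c encode enzymes of one family, yet their windows were identical at 39.7% of aligned bases and held the same 3 motifs. Hadha and Hadhb are transcribed away from each other, and their starts in the table are separated by 272 bases. The Hadhb window shown therefore also covers 228 of the 250 bases upstream of Hadha, read on the other strand. Acot1 and Acot2 lie next to each other on chromosome 12 in the same direction, with windows identical at 46.7% of aligned bases.

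A promoter was listed for 33 of the 37 genes, but not for Fabp5, Acaa2, Cpt1b and Decr1. The GC box was found in 23 of these 33 windows (69.7%), against 32.9% of the windows of 27025 genes. The CCAAT box was found in 15 (45.5%, against 34.5%), the half-site in 6 (18.2%, against 13.8%) and the palindromic NRF1 motif in 2 (6.06%, against 0.781%). The letters TATAAA were in none of the 33 and in 12.97% of all windows. The PPAR element of the DR1 type, a direct repeat of the half-site with 1 base between the copies, and the motif TCAAGGTCA, bound by ERR receptors, were in none of the 33, and in 0.037% and 0.366% of all windows. Both of these longer motifs contain the half-site. All were searched as exact letters on both strands, and a match here is a description of letters only. The 27025 windows were not limited to expressed genes, and no share among expressed genes was computed.

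The deposited values count reads of 50 bases over exons, with a single RefSeq transcript for each gene. Counts summed to 12505685 in B6, 33891715 in NOD 1 and 36171013 in NOD 2, and a single count was worth 0.0734, 0.0303 and 0.0294 CPM after TMM scaling. A count of 0 thus allows a level of up to 0.220 CPM for B6, 0.0908 for NOD 1 and 0.0882 for NOD 2. CPM below always means TMM-scaled CPM, which corrects for library size but not for transcript length. Values in a series of 3 stand in the order B6, NOD 1, NOD 2, and those in a pair in the order NOD 1, NOD 2. Fold changes are NOD relative to B6, and a gene is called when edgeR's quasi-likelihood test gave an adjusted p under 0.05 and the change was at least 2-fold. Since B6 is a single library, its own spread is unknown and the test lends it the spread of the NOD libraries. Nothing in the labels says that the libraries came from separate litters, so that p-values measure the spread between these libraries only.

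Marker levels differed between the libraries. Summed markers of the inner cell mass stood at 620.8, 1060 and 1672 CPM (B6, NOD 1, NOD 2), with all 11 detected in each library, and 4 were called up and 1 down. Trophectoderm markers summed to 3234, 1957 and 1808 CPM, with 10 of 12 detected in B6 and all 12 in each NOD library, and none was called. Primitive endoderm markers summed to 815.4, 786.4 and 990.1 CPM, with 6 of 8 detected in each library, Foxa2 at 0 in all of them, and 1 was called up and 1 down. The part of these shifts in the results below was not tested. Markers of leukocytes summed to at most 1.03 CPM in a library, with Ptprc, Lyz2, Fcer1g and Cd79a at 0 throughout, and those of cumulus and oviduct cells to at most 0.470 CPM. Oocyte markers, 4 of 7 detected in B6 and NOD 2 and all 7 in NOD 1, summed to 96.6, 76.9 and 103.8 CPM. Adipocyte and muscle markers summed to 76.4, 32.9 and 21.0 CPM with 3, 4 and 3 of 9 detected and Lep, Retn and Mb at 0 throughout. A single gene held 75.4 of the 76.4 CPM of this last list in B6. In NOD 2, a single gene held 824.3 of the 990.1 CPM of primitive endoderm markers, and another 99.1 of the 103.8 CPM of oocyte markers.

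Of the 37 genes, 36 passed the filter on low counts. In total, 5 were up-regulated in NOD, Slc25a20, Acadm, Acsl4, Acsl5 and Plin2, which is 13.9% of those tested beside 10.3% of all 14456 genes tested. Another 5 were down-regulated, Cpt1c, Hadha, Acaa1a, Acot2 and Plin3, again 13.9% and beside 7.39% of all genes. Without Cpt1c, whose difference was known when the set was chosen, 4 of 35 were down (11.4%). Cpt1c would not have passed the filter on its NOD counts, nor Acsl5 on its B6 counts, so that the filter itself favoured the direction in which each was called. These shares stand within a few genes of the background, and no enrichment is read from them. The remaining 26 were not called. The calls depend on the test and filter: with all low counts kept or with limma-voom, no gene of the table was called (smallest adjusted p 0.0649 and 0.0501). Before adjustment, 16 of 37 and 14 of 36 of the set passed 0.05, beside 5568 of 16765 and 3924 of 14456 genes. The median log2 fold change was 0.20 over the 36 genes and 0.26 over all genes tested (0.16 and 0.23 with genes at 0 in a strain set at their bound). With at least 10 counts in each library these medians were 0.24 and 0.02. Scaling by total counts alone moved the median of all genes to 0.07 and the up-regulated share of all calls from 58.1% to 47.8%. The summed level of the 37 genes was 3961, 4079 and 4470 CPM. This sum was 1.03 times that of B6 in NOD 1 and 1.13 times in NOD 2, whereas with total-count scaling it was 0.922 and 0.974 times, below B6 in both.

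**Figure D1:**
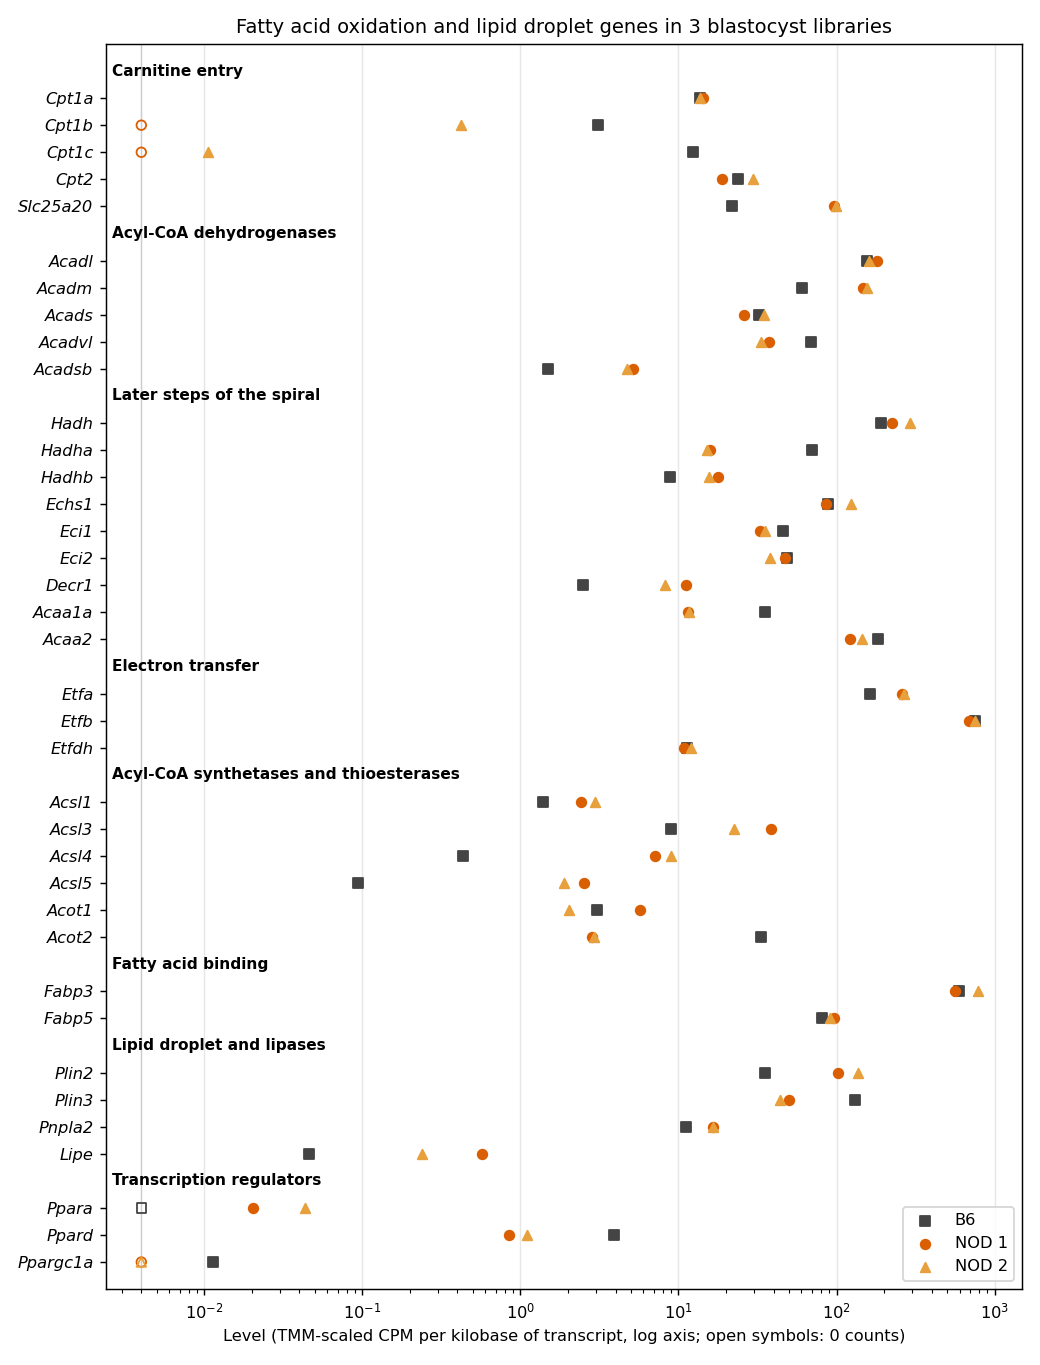
Level of each of the 37 genes on a log axis of TMM-scaled CPM per kilobase of transcript, grouped by role, with a square for B6, a circle for NOD 1 and a triangle for NOD 2, open where the count was 0. B6 lies to the right of both NOD points for Cpt1c, Hadha and Acot2 and to the left for Slc25a20, Acsl4 and Acsl5, while the points of Cpt1a, Etfb and Etfdh nearly coincide.

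The 2 NOD libraries lay close to each other for most of the genes. Of 34 genes with counts in both, the median difference was 1.17-fold, and 5 differed by more than 1.5-fold. Among genes with at least 100 NOD counts, the largest difference was that of Acot1, at 2.81-fold. The order of levels per kilobase of transcript was led in both strains by Etfb, a subunit of the electron carrier ETF, and Fabp3, a cytosolic fatty acid binding protein. Per kilobase, Hadha fell from rank 10 of 37 in B6 to rank 21 in the NOD mean, and Acot2 from 17 to 29. Slc25a20 moved from rank 20 to 10, Plin2 from 16 to 8 and Acadm from 12 to 6.

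**Figure D2:**
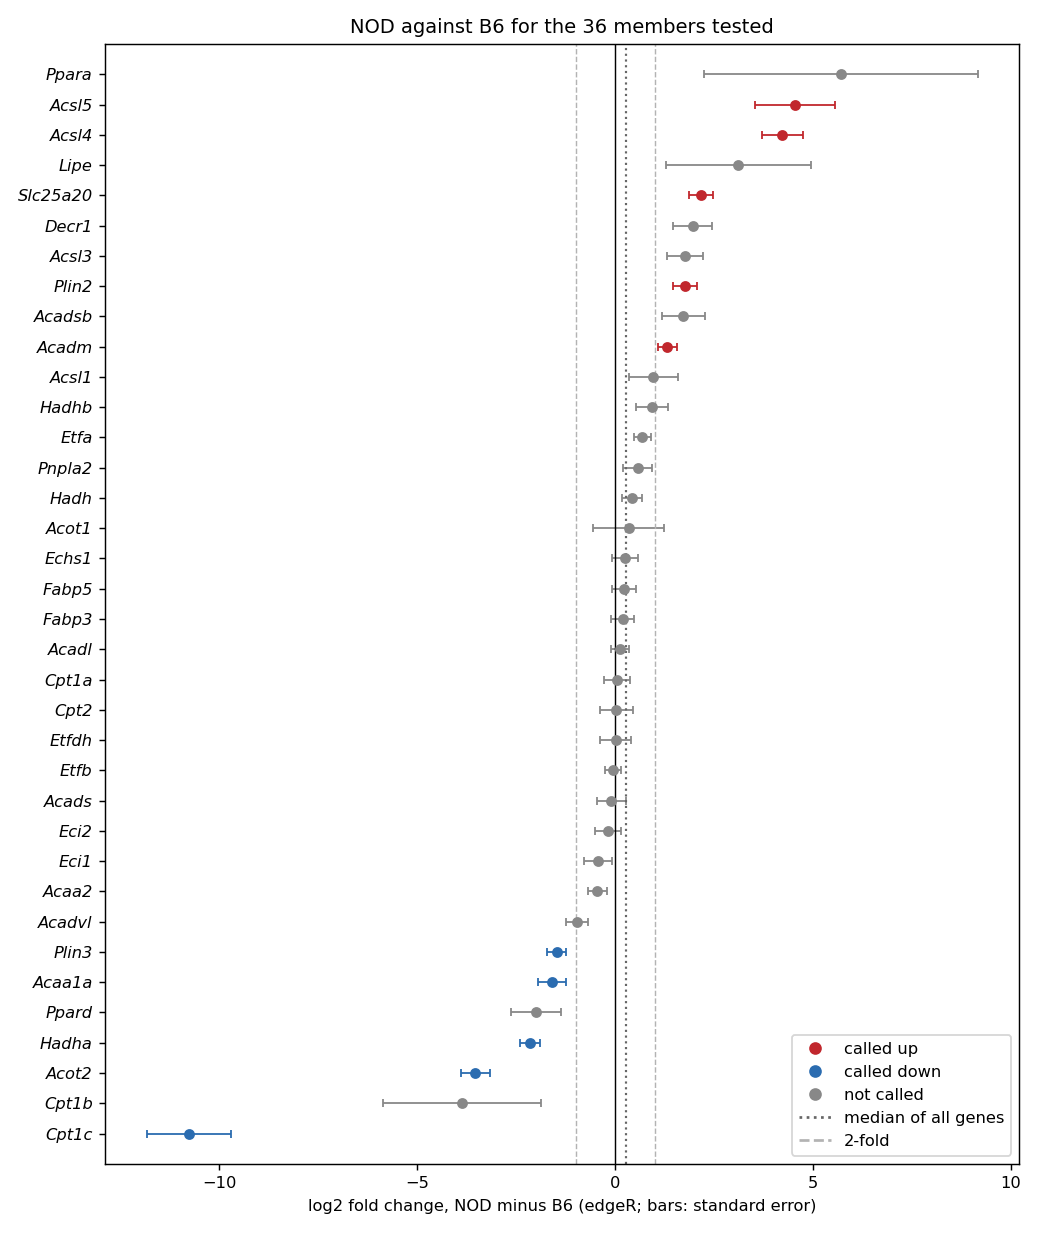
Fitted log2 fold change of NOD relative to B6 for the 36 tested genes, ordered by size, with bars of 1 standard error, red for genes called up, blue for called down and grey for the rest. Dashed lines mark a 2-fold change and the dotted line the median of all genes, 0.26. Cpt1c lies lowest at −10.77, a value that depends on the prior count, and 5 called genes lie on either side of 0.

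Of the 5 genes grouped under entry into mitochondria, 1 was up and 1 was down, beside 10.3% and 7.39% of all genes, and 3 were not called. The gene called down was Cpt1c, whose difference was known when the set was chosen. Cpt1a, the CPT1 enzyme of liver and most other tissues (chromosome 19, 3323301 to 3385733), had 793 counts in B6 against 2016 and 1988 in NOD. These are 58.2, 61.0 and 58.4 CPM, so that the 3 libraries were nearly level, with a log2 fold change of 0.04 ± 0.33 (SE) and an edgeR adjusted p of 0.940. Cpt1c, a paralog known mainly from neurons and with little catalytic activity (chromosome 7, 44959372 to 44974851, minus strand), had 466 counts in B6 against 0 and 1 in NOD. Scaled, B6 stood at 34.2 CPM against 0 and 0.0294. B6 held 2294 times the NOD level, with an exact 95% interval from 409.7 to 90806 for counting error. This value rests on 1 NOD count: without NOD 1 the ratio is 1164, and without NOD 2 it is a lower bound of at least 376.8-fold, set at the floor of 3 counts in NOD 1. The gene was thus plainly counted in B6 and at or under the floor in both NOD libraries. Its antisense partner 6530437J22Rik covers 6.53% of its exon bases, and reads were counted without regard to strand.

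Cpt1b, the muscle form (chromosome 15, 89416405 to 89425862, minus strand), had 122, 0 and 41 counts, or 8.95, 0 and 1.205 CPM. It was lower in both NOD libraries, which differed from each other, and the log2 fold change of −3.88 ± 1.996 (SE) was not called (edgeR adjusted p = 0.211). These counts are uncertain, because Cpt1b lies inside the read-through gene ChkbCpt1b, and 78.6% of the 50-base words of its transcripts occur in another gene's transcripts. ChkbCpt1b itself had 1043, 695 and 1021 counts and was not called, and the adjoining Chkb, a choline kinase, had 1237, 844 and 1151 counts and was called down (edgeR adjusted p = 0.0463, not called with upper-quartile factors).

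Set per kilobase, the 3 paralogs made up the summed transcript level of the family in different proportions. In B6, Cpt1a held 46.8% of the family's CPM per kilobase, Cpt1c 42.5% and Cpt1b 10.7%. Cpt1a held 100% in NOD 1 and 96.9% in NOD 2, where Cpt1b held 2.98% and Cpt1c 0.0753%. The family sum was 29.0, 14.3 and 14.1 CPM per kilobase, whereas Cpt1a alone stood at 13.6, 14.3 and 13.7. The lower NOD sum thus lay in Cpt1c and Cpt1b, and import of fatty acids into mitochondria was not measured.

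**Figure D3:**
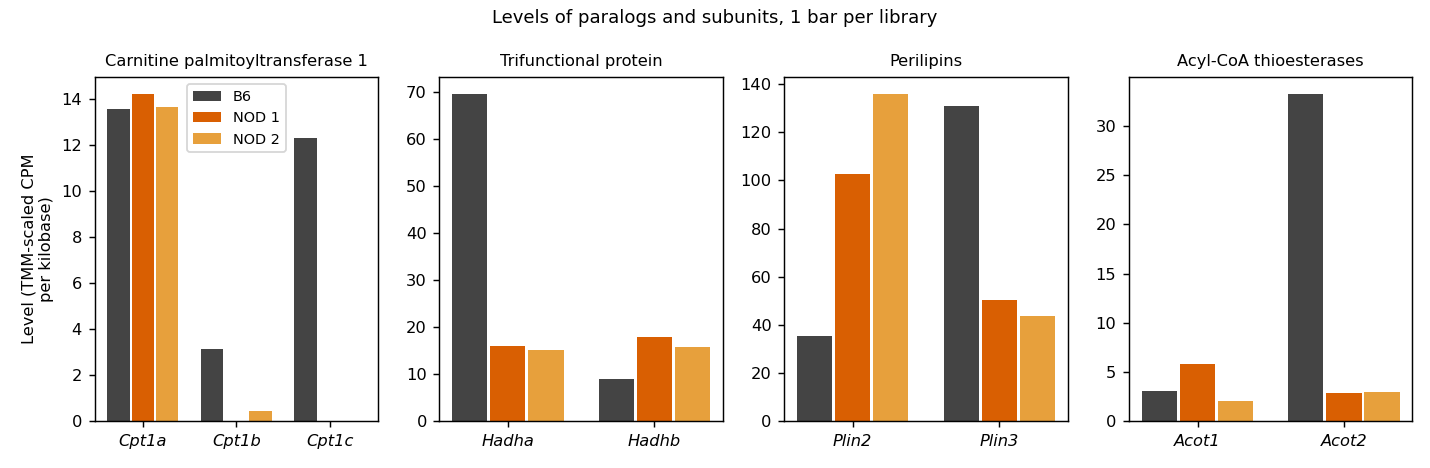
TMM-scaled CPM per kilobase of the CPT1, trifunctional protein, perilipin and thioesterase genes, 1 bar per library on axes from 0. The 3 bars of Cpt1a are nearly level, whereas Cpt1c has a visible bar in B6 alone, Plin2 and Plin3 change places between the strains, and the tall B6 bars of Hadha and Acot2 have no match in NOD.

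Slc25a20, the carnitine/acylcarnitine translocase of the inner membrane (chromosome 9, 108662098 to 108684641), rose. It had 524 counts in B6 against 5629 and 5958 in NOD, or 38.5, 170.3 and 175.1 CPM. Both NOD libraries were far above B6 and close to each other, 4.49-fold higher on average, with a log2 fold change of 2.17 ± 0.29 (SE) and an edgeR adjusted p of 0.0234. Cpt2, which re-forms the acyl-CoA on the matrix side, had 757, 1469 and 2347 counts. At 55.6, 44.4 and 69.0 CPM, B6 lay between the NOD libraries.

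The acyl-CoA dehydrogenases take the first oxidation step, each for a range of chain lengths. Acadm, for medium chains (chromosome 3, 153922353 to 153944643, minus strand), had 1696, 9947 and 10821 counts, or 124.5, 301.0 and 318.0 CPM. It was 2.49-fold higher in NOD, with the 2 NOD libraries close together, and was called (log2 fold change 1.31 ± 0.24 SE, edgeR adjusted p = 0.0345). Acadvl, for very long chains, was lower in both NOD libraries without passing. It had 2021, 2686 and 2435 counts, or 148.3, 81.3 and 71.6 CPM, with a log2 fold change of −0.96 ± 0.28 (SE) and an edgeR adjusted p of 0.0752. In another annotation, GENCODE, Dvl2 on the opposite strand covers 42.9% of the exon bases of Acadvl. The RefSeq transcripts counted here do not overlap, since Dvl2 ends at 70010109 and Acadvl starts at 70010183. Dvl2 had 372, 298 and 299 counts. The ratio of Acadvl to Acadm per kilobase was 1.13 in B6, 0.255 in NOD 1 and 0.213 in NOD 2.

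Acadl, for long chains, had the highest level per kilobase of the 5 dehydrogenases in each library, at 156.3, 180.9 and 160.1 CPM per kilobase, with 4120, 11569 and 10541 counts. Its 302.4, 350.0 and 309.8 CPM gave a log2 fold change of 0.13 ± 0.23 (SE) and an edgeR adjusted p of 0.697. Acads, for short chains, had 823, 1598 and 2184 counts, with B6 between the NOD libraries at 60.4 CPM against 48.35 and 64.2. Acadsb, which oxidises short branched acyl-CoAs, had only 68 counts in B6 against 566 and 534 in NOD. Scaled, it stood at 4.99 CPM in B6 against 17.1 and 15.7, and it missed the limit (log2 fold change 1.72, edgeR adjusted p = 0.0873).

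The subunits of the mitochondrial trifunctional protein, 2 of the 9 genes of the later steps, departed from each other. Hadha, the alpha subunit with the hydratase and long-chain dehydrogenase activities (chromosome 5, 30118304 to 30154980, minus strand), had 3621 counts in B6 against 2009 and 1971 in NOD. This is 265.8 CPM in B6 against 60.8 and 57.9 in NOD, 4.48-fold lower (log2 fold change −2.16 ± 0.25 SE, edgeR adjusted p = 0.0212). Hadhb, the beta subunit with the thiolase activity (chromosome 5, 30155253 to 30184593, plus strand), had 248, 1211 and 1098 counts. Its 18.2, 36.6 and 32.3 CPM lay higher in both NOD libraries, but the difference was not called (log2 fold change 0.92 ± 0.40 SE, edgeR adjusted p = 0.160). The ratio of Hadha to Hadhb per kilobase was 7.88 in B6, 0.895 in NOD 1 and 0.968 in NOD 2. The 2 subunits, which start on either side of the upstream window shown for Hadhb, thus stood near equal levels in NOD and far apart in B6. Of the 50-base words of Hadhb, 19.7% occur in other genes' transcripts, against 0.341% for Hadha.

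The other genes of the spiral mostly stayed under the limits. Hadh, the dehydrogenase for medium and short chains, had 4662, 13142 and 17712 counts, or 342.2, 397.6 and 520.5 CPM (log2 fold change 0.42 ± 0.26 SE, edgeR adjusted p = 0.281). Echs1, the short-chain hydratase, had 1774, 4198 and 6252 counts, or 130.2, 127.0 and 183.7 CPM (log2 fold change 0.26 ± 0.33 SE, edgeR adjusted p = 0.582). Acaa2, the mitochondrial thiolase, had 3705, 6006 and 7299 counts, or 271.9, 181.7 and 214.5 CPM (log2 fold change −0.46 ± 0.24 SE, edgeR adjusted p = 0.225). Hadh was higher and Acaa2 lower in both NOD libraries without passing, and Echs1 in B6 lay between the NOD libraries.

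Acaa1a, the peroxisomal thiolase (chromosome 9, 119341294 to 119350295), fell. It had 840, 661 and 696 counts, or 61.7, 20.0 and 20.5 CPM, 3.05-fold lower in NOD (log2 fold change −1.61 ± 0.35 SE, edgeR adjusted p = 0.0444). Its near copy Acaa1b shares part of the 17.1% of its words that are not its own, and had 216, 109 and 45 counts without a call. With upper-quartile factors Acaa1a was not called, at an adjusted p of 0.0544.

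The next 3 enzymes handle the double bonds of unsaturated fatty acids. Decr1, the 2,4-dienoyl-CoA reductase, had 100 counts in B6 against 1083 and 824 in NOD, or 7.34 CPM against 32.8 and 24.2. Both NOD libraries were well above B6, yet the adjusted p of edgeR was 0.0572. The isomerase Eci1 had 673, 1166 and 1297 counts and the isomerase Eci2, which also works in peroxisomes, had 1052, 2477 and 2065 counts. Their log2 fold changes were −0.43 and −0.19, and neither was called.

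Of the 3 genes that take electrons from the dehydrogenases, 0 were called at these limits. Etfb, the beta subunit of ETF, had 9192, 20358 and 22933 counts, or 674.6, 616.0 and 674.0 CPM, with a log2 fold change of −0.06 ± 0.20 (SE) and an edgeR adjusted p of 0.823. Of its words 44.8% are shared, mostly with the overlapping transcript Gm45233. Etfa, the alpha subunit, had 3233, 12505 and 13116 counts, or 237.3, 378.4 and 385.5 CPM, and missed both limits (log2 fold change 0.69 ± 0.22 SE, edgeR adjusted p = 0.0905). The Etfa to Etfb ratio per kilobase was 0.217 in B6, 0.380 in NOD 1 and 0.353 in NOD 2. Etfdh, which passes the electrons to ubiquinone, had 351, 817 and 920 counts and a log2 fold change of 0.01.

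Of the 4 long-chain acyl-CoA synthetases of the set, 2 were called, both up, beside 10.3% of all genes called up and 7.39% down, and 1 of these, Acsl5, is the gene whose direction the filter favoured. No enrichment is read from so few. Another gene of the family, Acsl6, was lower in NOD without a call. Acsl4, which prefers arachidonic acid and other polyunsaturated chains (chromosome X, 142317993 to 142390535, minus strand), had 31 counts in B6 against 1243 and 1607 in NOD. At 2.28 CPM against 37.6 and 47.2, it was 18.6-fold higher in NOD (log2 fold change 4.22 ± 0.52 SE, edgeR adjusted p = 0.0223). Acsl4 is X-linked, and the libraries differed in sex-linked transcripts. The Y-linked Ddx3y had 1476, 3721 and 0 counts, and Xist had 271, 67 and 4017. The part of embryo sex in the Acsl4 difference was not tested.

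Acsl5, known from intestine and liver (chromosome 19, 55253369 to 55296628) had 4 counts in B6 against 263 and 202 in NOD. NOD held 23.6 times the B6 level, with an exact 95% interval from 9.16 to 87.0 for counting error. It was called (log2 fold change 4.54 ± 1.001 SE, edgeR adjusted p = 0.0449), but not with total counts only (0.0541), with upper-quartile factors (0.0542) or with the dispersion set by glmQLFit (0.123). Acsl3, a synthetase of the endoplasmic reticulum and of nascent lipid droplets, had 480, 5018 and 3005 counts, or 35.2, 151.8 and 88.3 CPM. It lay above B6 in both NOD libraries, which differed from each other, and missed the limit (log2 fold change 1.77, edgeR adjusted p = 0.0604). It overlaps Utp14b on the same strand, which had 271, 2261 and 2089 counts and was called up, though not with total counts only or upper-quartile factors. Acsl1, the main form of heart and fat, had 73, 309 and 393 counts and was not called (log2 fold change 0.96). Acsl6, known from brain, is not of the set and had 344, 364 and 389 counts, or 25.2, 11.01 and 11.4 CPM (log2 fold change −1.17, edgeR adjusted p = 0.122).

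Per kilobase, the 5 Acsl genes summed to 20.1, 54.7 and 40.5 CPM. In B6, Acsl6 and Acsl3 stood side by side at 9.20 and 8.96 CPM per kilobase, or 45.8% and 44.6% of the sum. In NOD, Acsl3 led with 70.5% and 55.5%, followed by Acsl4 with 13.1% and 22.2% beside 2.15% in B6.

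The thioesterases do the reverse of the synthetases and free fatty acids from CoA. Acot2, the mitochondrial form (chromosome 12, 83987861 to 83993875), had 996 counts in B6 against 206 and 218 in NOD. At 73.1 CPM against 6.23 and 6.41, it was 11.6-fold lower in NOD, with the NOD libraries almost level (log2 fold change −3.53 ± 0.37 SE, edgeR adjusted p = 0.0203). Acot1, its cytosolic neighbour (chromosome 12, 84009502 to 84017669), had 65, 295 and 108 counts, or 4.77, 8.93 and 3.17 CPM, so that B6 lay between the NOD libraries. The Acot2 to Acot1 ratio per kilobase was 10.9 in B6, 0.495 in NOD 1 and 1.43 in NOD 2. The 2 genes are near copies, with 27.7% of the words of Acot2 and 19.2% of those of Acot1 shared, mainly among the Acot genes, so that some reads could be assigned to either. Other thioesterases of the cluster were low, with Acot3 at 0, 0 and 70 counts and Acot4 at 0, 0 and 17.

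The 2 fatty acid binding proteins were not called. Fabp3, the heart form, had 5128, 11797 and 17026 counts, or 376.4, 356.9 and 500.4 CPM, with B6 between the NOD libraries (log2 fold change 0.19 ± 0.29 SE, edgeR adjusted p = 0.642). Of its words 37.3% occur elsewhere, in a pseudogene and overlapping genes. Fabp5, the epidermal form, had 1036, 3000 and 2925 counts, or 76.0, 90.8 and 86.0 CPM (log2 fold change 0.22).

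At the lipid droplet, the 2 perilipins of the set moved in opposite directions. Plin2, the perilipin that coats droplets of most cells and is stable only there (chromosome 4, 86656565 to 86670059, minus strand), had 900, 6373 and 8697 counts. Its 66.1, 192.8 and 255.6 CPM made it 3.39-fold higher in NOD (log2 fold change 1.76 ± 0.31 SE, edgeR adjusted p = 0.0325). Plin3, which moves between the cytosol and nascent droplets (chromosome 17, 56278962 to 56290511, minus strand), had 3832, 3559 and 3187 counts. Its 281.2, 107.7 and 93.7 CPM made it 2.79-fold lower (log2 fold change −1.48 ± 0.25 SE, edgeR adjusted p = 0.0290). The ratio of Plin3 to Plin2 per kilobase was 3.72 in B6, 0.488 in NOD 1 and 0.320 in NOD 2. Their sum per kilobase was 166.1, 152.8 and 179.8 CPM, with B6 between the NOD libraries, whereas with total-count scaling it was 180.9, 149.0 and 169.1, with B6 above both. Plin2 held 21.2% of it in B6, 67.2% in NOD 1 and 75.8% in NOD 2, so that the leading gene of this pair differed between the strains.

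Of the lipases, Pnpla2 (ATGL), which starts the breakdown of triglyceride, had 411, 1483 and 1526 counts, or 30.2, 44.9 and 44.9 CPM. Its log2 fold change of 0.57 ± 0.36 (SE) was not called. Lipe, the hormone-sensitive lipase, was hardly counted, with 2, 61 and 26 counts. The NOD level was 8.84 times that of B6, with an exact 95% interval from 2.37 to 74.1 for counting error, and the gene was not called (edgeR adjusted p = 0.257).

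The transcription factors of the set were low. Ppara, the receptor that drives oxidation genes in liver, had 0, 5 and 11 counts, and no fold is given because the NOD level was near the B6 floor. Ppargc1a, a coactivator of mitochondrial genes, had 1, 0 and 0 counts and is the gene that did not pass the filter. Ppard, the widely expressed PPAR, had 171, 90 and 120 counts, or 12.6, 2.72 and 3.53 CPM. It was lower in both NOD libraries and missed the limit (log2 fold change −2.004 ± 0.64 SE, edgeR adjusted p = 0.0877).

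In 7 further lists of the same pathways, 131 genes were tested. In all, 11 were called up (8.40%) and 8 down (6.11%), with a median log2 fold change of 0.06, against 10.3% and 7.39% of all genes. With total counts only, that median was −0.15, and without NOD 2 it was −0.06. The ranges given below for each list span, for counts, the alternatives that called any gene, and for medians all alternatives, the fits without 1 NOD library included. Over all genes, the alternatives that called any gene called from 1016 to 2346 up and from 701 to 1922 down, of 10842 to 14456 tested.

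**Figure D4:**
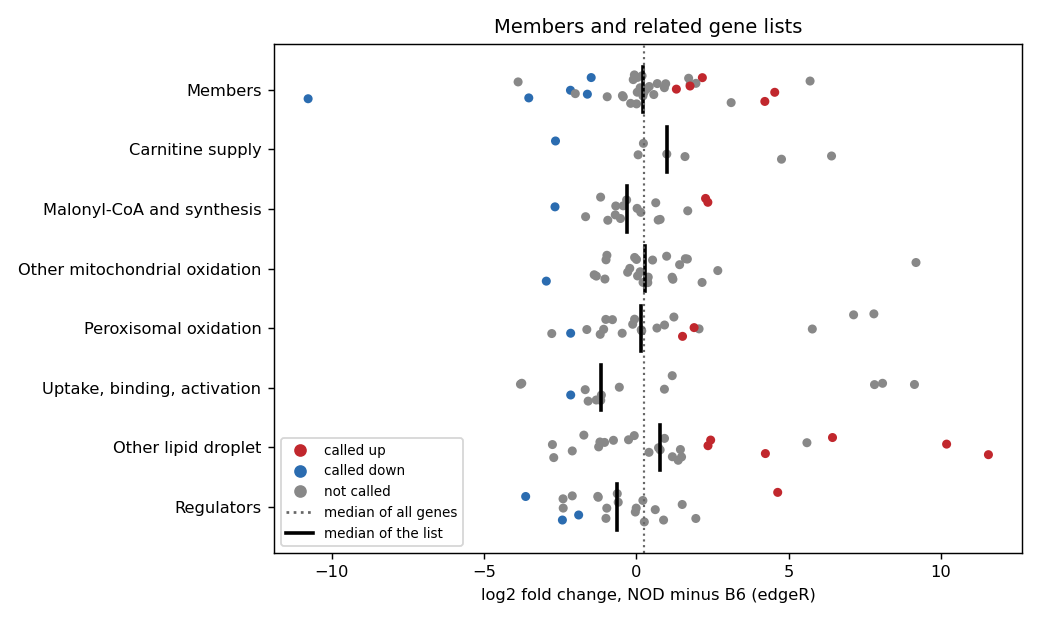
Log2 fold change of NOD relative to B6 for each tested gene of the set and of the 7 further lists, 1 point per gene, with genes called up in red, called down in blue and the rest in grey, list medians as black bars and the median of all genes as a dotted line. Each list spreads over both sides of 0, and 6 of 25 genes of the lipid droplet list are red.

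Among 25 tested genes of other lipid droplet proteins, 6 were called up (24%, beside 10.3% of all genes) and 0 down (beside 7.39%), with a median of 0.78 on the log2 scale, which was 0.19 without NOD 2. DESeq2 called 9 up and 2 down, beside 2346 up and 1864 down of all 14456 genes. With at least 10 counts in each library 6 were up and 2 down, beside 2012 and 1922 of 10842 genes. Soat1, which makes cholesteryl esters, had 434, 4952 and 6659 counts (log2 fold change 2.44, edgeR adjusted p = 0.0242). Mgll, the monoglyceride lipase, had 126, 1709 and 1455 counts (log2 fold change 2.35, edgeR adjusted p = 0.0343). The other 4 were outside the rule for naming, and were picked once their values had been read. With at most 6 counts in B6, these 4 would not have passed the filter on their B6 counts, which favoured a call up. Without them, 2 of 21 were up (9.52%), near the share of all genes. Plin5, the perilipin of oxidative tissues, had 0, 332 and 611 counts, at least 63.6-fold higher in NOD against a floor of 3 counts. Lipa, the lysosomal acid lipase, had 0, 229 and 132 counts, at least 24.5-fold higher. Gpam, which starts glycerolipid synthesis in mitochondria, had 1, 253 and 200 counts, so that NOD held 92.0 times the B6 level (exact 95% interval 16.4 to 3642). Pnpla3, a paralog of Pnpla2, had 6, 215 and 349 counts, so that NOD held 19.1 times the B6 level (exact 95% interval 8.72 to 52.3). With the dispersion set by glmQLFit, Lipa, Gpam and Pnpla3 were not called, nor was Pnpla3 with total counts only or upper-quartile factors.

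Of 7 tested genes of carnitine supply (median 0.999, range 0.82 to 1.32), 0 were up (range 0 to 3) and 1 was down (14.3%, range 0 to 1). Of all genes, 10.3% were up and 7.39% down. The gene called down was Slc22a5, the plasma membrane carnitine transporter OCTN2, with 323, 103 and 150 counts (log2 fold change −2.65, edgeR adjusted p = 0.0407, not called with upper-quartile factors). Of 17 genes of malonyl-CoA and fatty acid synthesis, 2 were up (11.8%, range 1 to 3) and 1 was down (5.88%, range 1 to 2). Their median of −0.32 ranged from −0.51 to 0.04, and its sign turned without NOD 1. Acacb, the acetyl-CoA carboxylase whose malonyl-CoA inhibits CPT1, had 506, 196 and 195 counts (log2 fold change −2.67, edgeR adjusted p = 0.0285). Prkaa1, a catalytic subunit of AMPK, which phosphorylates and inhibits that carboxylase, had 417, 3682 and 6810 counts (log2 fold change 2.35, edgeR adjusted p = 0.0407), and was not called with total counts only or upper-quartile factors. Elovl5, an elongase of polyunsaturated chains, had 593, 8161 and 5909 counts (log2 fold change 2.27, edgeR adjusted p = 0.0275). Each of these 4 genes lay on the same side of B6 in both NOD libraries, which the rule for naming required.

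Of 21 peroxisomal genes, 2 were up (9.52%, range 0 to 4) and 1 was down (4.76%, range 1 to 3), beside 10.3% and 7.39% of all genes. Their median of 0.16 ranged from −0.11 to 0.18 and was below 0 without NOD 2 (−0.08), with total counts only, with NOD thinned to the B6 total and with at least 10 counts in each library. Pex2 and Pex13, both needed for protein import into peroxisomes, had 423, 3089 and 4684 counts and 501, 3302 and 3758 counts. Their log2 fold changes were 1.90 and 1.52, with edgeR adjusted p-values of 0.0423 and 0.0430, and neither was called with total counts only or upper-quartile factors. Abcd4, a transporter of the peroxisomal family that works in lysosomal cobalamin export, had 996, 669 and 427 counts (log2 fold change −2.16, edgeR adjusted p = 0.0391). Of 26 other mitochondrial genes, 0 were up, beside 10.3% of all genes. With at least 10 counts in each library 5 were up, beside 2012 of 10842 genes, and with DESeq2 3, beside 2346 of 14456. The median of the list was 0.29, and 0.11 without NOD 2. The gene called down (3.85%, range 0 to 2, beside 7.39% of all genes) was Acad12, with 206, 81 and 49 counts. It was picked once its values had been read and was not called with total counts only or upper-quartile factors. Of 14 genes of uptake, binding and activation (median −1.16, range −1.34 to −0.96), 0 were up (range 0 to 1) and 1 was down (7.14%, range 1 to 5). These stand beside 10.3% and 7.39% of all genes. The gene called down was the fatty acid transporter Slc27a1, with 484, 259 and 276 counts (log2 fold change −2.15, edgeR adjusted p = 0.0380).

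Of 21 regulators (median −0.63, range −0.99 to −0.44), 1 was up (4.76%, range 0 to 2) and 3 were down (14.3%, range 2 to 6), beside 10.3% and 7.39% of all genes. Ppargc1b, a coactivator of ERR and PPAR receptors, had 1162, 256 and 204 counts, 12.4-fold lower in NOD (log2 fold change −3.63, edgeR adjusted p = 0.0203). Esrra, the receptor ERR alpha, had 706, 380 and 264 counts, 5.38-fold lower (log2 fold change −2.43, edgeR adjusted p = 0.0329). Both were lower in each NOD library than in B6, which the rule for naming required. Foxo1, picked once its values had been read, had 2755, 2330 and 1304 counts (log2 fold change −1.89, edgeR adjusted p = 0.0462), and was not called with total counts only (0.0501) or upper-quartile factors (0.0583). Ucp2, an inner membrane carrier and the regulator called up, would likewise not have passed the filter on its B6 counts. It had 8, 338 and 656 counts, 25.2 times the B6 level with an exact 95% interval from 12.8 to 58.6 for counting error, and was not called with the dispersion set by glmQLFit.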

How the data were processed

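Blastocyst RNA-Seq was analysed for 1 B6 and 2 NOD libraries, grouped by the strain and title in the labels. The deposited values are raw counts: the authors aligned 50-base single-end reads to the mm10 genome with STAR (2.2.0c in the submitters' processing notes, another version in the paper's text) and counted them with HOMER on RefSeq exons, without strand. Treatment of multiply aligned reads is not given in the sources used here. Shares of exon bases covered and of 50-base words shared were taken from GENCODE transcripts, which can extend beyond the RefSeq transcript counted.

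Counts were filtered with filterByExpr (minimum count 10), scaled by TMM and tested with edgeR 4.0.16 (quasi-likelihood, trended dispersion, prior count 0.125, R 4.3.3), with Benjamini-Hochberg adjustment over 14456 genes. The fit has 1 residual degree of freedom. The test was tested on simulated data. Levels of different genes were compared per kilobase only. Ratios against counts of 13 or fewer have exact Clopper-Pearson 95% intervals, which cover counting error only, since reads without molecular identifiers are not independent. An exact permutation test of 1 against 2 libraries cannot pass any usual limit. DESeq2 1.42.0, limma 3.58.1 and other scalings and filters were alternatives.

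The genes and lists were chosen with earlier results of these data known. All 37 genes are named, with standard errors and adjusted p for called genes, the CPT1 genes and genes with a mean of at least 100 CPM. For Cpt1c no p is given. From the further lists, the 2 largest rises and 2 largest falls among called genes with a mean of at least 10 CPM were named. Only genes with the same direction in both NOD libraries could be named by this rule. Of 32 lipid droplet genes listed, 29 were found by symbol.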

Additional observations from a re-analysis of the deposited data

How the results depend on the processing

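None of the 31 called genes named in the text changed direction under an alternative that gave it a value. With all low counts kept (smallest adjusted p 0.0649) and with limma-voom (0.0501), 0 of the 37 genes, 0 of all genes and 0 of the related genes were called up or down. Unadjusted p was under 0.05 in 5568 of 16765 and 3924 of 14456 genes, and in 16 of 37 and 14 of 36 of the set. In the main edgeR test it was under 0.05 in 5763 of 14456 genes and 16 of 36 of the set. All 10 calls were kept with size factors of DESeq2, with DESeq2 itself and with NOD thinned to the B6 total. Acsl5 was lost with total counts only, with upper-quartile factors and with the dispersion set by glmQLFit, an alternative chosen after seeing the data, and Acaa1a with upper-quartile factors. Of the other called genes named, Prkaa1, Pex2, Pex13, Pnpla3, Acad12, Foxo1 and Utp14b were lost with total counts only, these and Slc22a5 and Chkb with upper-quartile factors, and Ucp2, Lipa, Gpam and Pnpla3 with the dispersion set by glmQLFit. With at least 10 counts in each library, Cpt1c and Acsl5 were not tested, and Acadsb, Decr1, Acsl3 and Ppard were called. DESeq2 added Decr1 and Acsl3, thinning added these and Acadvl, and the dispersion set by glmQLFit added Acsl3. The median log2 fold change of the set was 0.0146 with total counts only and 0.11 with NOD thinned, and 0.14 to 0.24 without 1 NOD library.

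Over all genes, DESeq2 called 2346 up and 1864 down, upper-quartile factors 701 down, at least 10 counts in each library 1922 down and thinning 1673 down. With the dispersion set by glmQLFit the balance turned, with 1231 up and 1373 down over all genes and 8 up and 11 down among the related genes. It turned also with total counts only, with 1037 up and 1132 down over all genes and 7 up and 8 down among the related genes. Of the related genes, 7 were up and 5 down with upper-quartile factors, 23 up and 19 down with at least 10 counts in each library, 23 and 19 with DESeq2, and 17 and 14 with thinning. The median of the related genes was −0.15 with total counts only and −0.0629 to 0.0922 without 1 NOD library. The NOD mean share of Cpt1a in its family was 96.9% to 100% without 1 NOD library. The cause of these shifts was not tested. Counts of calls without 1 NOD library were not made, since 1 library against 1 leaves no residual degrees of freedom. No paired analysis was possible because the single B6 library can share at most 1 replicate number with the NOD libraries.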
